A study of Mus musculus with 5 samples.

Results

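Gata1, Klf1, Bcl11a, Epor, Alas2, Slc4a1, Sptb and Ank1 are 8 genes of the red cell lineage, and the Ago-bound fragments of their mRNAs were followed through liver development. A gene was taken where its symbol stood in the gene column of a miRNA-target interaction table. All 8 genes had entries, among 22714 genes listed in any table and 14348 genes listed under a coding sequence (CDS), 3′UTR or 5′UTR. They accounted for 10684 of 3254259 table entries, 6168 of them from e12.5, 1882 from e15.5, 1440 from e18.5, 1139 from P7 and 55 from the adult liver.

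In the fetus the liver is the main site of red cell production. Erythroid cells leave it around birth, when the bone marrow takes over, and hepatocytes come to fill the organ. Maturing erythroid cells are driven by GATA1, KLF1 and erythropoietin, make haem for haemoglobin, and build a membrane in which band 3, the anion exchanger, is tied through ankyrin to a lattice of spectrin. miRNAs lead Ago proteins to mRNAs by pairing of the seed, the bases from position 2 to position 8 of the miRNA.

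The livers were from C57BL/6 mice by the labels (C57BL/6J in the methods) at 3 embryonic stages (e12.5, e15.5 and e18.5, in days), at postnatal day 7 (P7) and at 6 to 8 weeks of age (adult), with 1 library per stage and no other treatment or genotype named. In Ago HITS-CLIP the tissue is crosslinked with ultraviolet light (here 254 nm, 0.2 J/cm2, 3 times), Ago is precipitated, and the RNA bound to it is sequenced. Antibodies to Ago2 were used at all stages and an antibody to Ago1 only at P7 and in adults, so that the effects of the antibody and of the time after birth cannot be told apart. Because there were no labelled replicates, no value below carries a replicate error and no difference was tested; each comparison is between 2 libraries.

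A cluster is a stretch of overlapping reads, and only clusters with a seed match were listed. Cluster coordinates here span the listed seed matches and not the reads, so that they depend on the miRNAs listed in a library. Clusters were joined between lists and between libraries by these spans. An mRNA cluster is one listed under the CDS, the 3′UTR or the 5′UTR. The level of a gene was the sum of the highest read numbers of its mRNA clusters scaled to 1000000 of the table's summed cluster reads (rpm). The tables held between 76948 (e18.5) and 208193 (e12.5) clusters, with summed reads between 13008703 and 44867326. Clusters over miRNA genes held between 50.5% and 53.7% of these reads in the embryonic libraries, 70.7% at P7 and 80% in adults, while mRNA clusters held between 23.3% and 30% before birth, 20.5% at P7 and 13.5% in adults. The level counts Ago-bound fragments and is not a measure of the amount of mRNA. Its scale is shared by miRNA and mRNA fragments, and values scaled to mRNA reads alone are given where they change a call. The 3 embryonic tables each held 2 lists that the labels do not describe, so that they were not treated as replicates and their values are given side by side. The text of the study names a further e18.5 library, and whether its entries are one of the lists of the e18.5 table is not known. PCR duplicates cannot be recognised in the tables, so that intervals below cover counting error only.

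Sites in the richest clusters of the 8 genes show which seed matches lay where Ago was recovered most. For each gene the mRNA cluster with the most rpm in any library was taken, and in it the sites of the miRNAs with the most reads in that library. All 8 of these clusters lay in the CDS, and 5 of them, those of Alas2, Slc4a1, Sptb, Ank1 and Bcl11a, held a site of the miR-15/16 family. Taken the same way for 12947 genes with at least 20 mRNA cluster reads in a library, 66.5% of the richest clusters were listed under a CDS and 6.17% held a site of this family. The family was singled out from these same 8 clusters, so that the shares describe it and do not test it. The reads, lengths and regions of the clusters were not matched in this. These 5 sites are given 5′ to 3′ on the strand of the mRNA with mm10 coordinates, and the bases paired to the seed are in capitals.
Alas2, exon 11, chrX:150570326-150570341, plus strand: agagaagcTGCTGCTg
Slc4a1, exon 10, chr11:102357204-102357225, minus strand: gcataaccgagaggaGCTGCTg
Sptb, exon 3, chr12:76632404-76632425, minus strand: acggatgctcatcaaGCTGCTg
Ank1, exon 15, chr8:23098965-23098986, plus strand: acggttggcggagcTGCTGCTg
Bcl11a, exon 4, chr11:24164506-24164527, plus strand: tctgtccaaaaagcTGCTGCTg
The sites of Alas2, Ank1 and Bcl11a match 7 seed bases, and those of Slc4a1 and Sptb match 6. Each of the 5 sites was listed in 4 libraries, and none of them in adults. The miR-15/16 miRNAs share a seed, in capitals in the mature sequences from RefSeq (GRCm38.p6).
miR-15a-5p: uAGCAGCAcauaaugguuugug
miR-15b-5p: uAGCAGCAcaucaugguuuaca
miR-16-5p: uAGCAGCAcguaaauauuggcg

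The richest clusters of the other 3 genes held no site of this family among the sites taken. In Epor and again in Ank1 a site of miR-451a, an erythroid miRNA, with only 6 matched bases was listed in 4 libraries. In Gata1 a site of miR-142a-3p, a miRNA of blood cells, was listed in 2 libraries, and in Klf1 a site of miR-665-3p in 3. They are shown because the miRNAs of the first 3 were among the most abundant of the fetal liver. Capitals mark the bases paired to the seed and, at the end of the Gata1 and Klf1 sites, the A that lies across from the first base of the miRNA.
Epor, miR-451a, exon 6, chr9:21960546-21960567, minus strand: atctcgctgttgctgACGGTTc
Ank1, miR-451a, exon 15, chr8:23098950-23098971, plus strand: taagtacgggaaggtACGGTTg
Gata1, miR-142a-3p, exon 5, chrX:7960655-7960677, minus strand: ctaactgtcaaacgacCACTACA
Klf1, miR-665-3p, exon 1, chr8:84902074-84902093, plus strand: accctgggacagtTCCTGGA
The mature miRNAs are given with the seed in capitals, and miR-144-3p, which is made from the same transcript as miR-451a, is added for the comparison of seed families.
miR-451a: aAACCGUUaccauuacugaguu
miR-142a-3p: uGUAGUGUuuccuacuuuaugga
miR-665-3p: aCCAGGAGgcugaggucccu
miR-144-3p: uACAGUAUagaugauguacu
A listed site is a seed match inside a cluster. Clusters commonly held sites of several miRNAs (54 miRNAs in the richest Alas2 cluster and 3 in that of Gata1), so that the tables do not show which miRNA was bound.

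All 8 genes were higher in the fetal libraries than in the adult library, and 5 of them (Gata1, Klf1, Slc4a1, Ank1 and Bcl11a) had no mRNA cluster listed in adults. Of the 8 genes, 6 were highest at e15.5, and Gata1 and Bcl11a at e12.5. Of 12947 genes, 23.4% were highest at e15.5 and 21.9% at e12.5. Scaled to mRNA cluster reads alone, Sptb was also highest at e12.5 and 5 genes were highest at e15.5, against 16.4% of the genes. Summed over the 8 genes, the level was 1835 rpm at e12.5, 2801 rpm at e15.5, 1233 rpm at e18.5, 307 rpm at P7 and 6.47 rpm in adults. As a share of all mRNA cluster reads this was 0.788%, 0.944%, 0.411%, 0.15% and 0.0048%. Whole livers were sampled, so that fewer erythroid cells and less of these mRNAs per cell cannot be told apart.

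**Figure D1:**
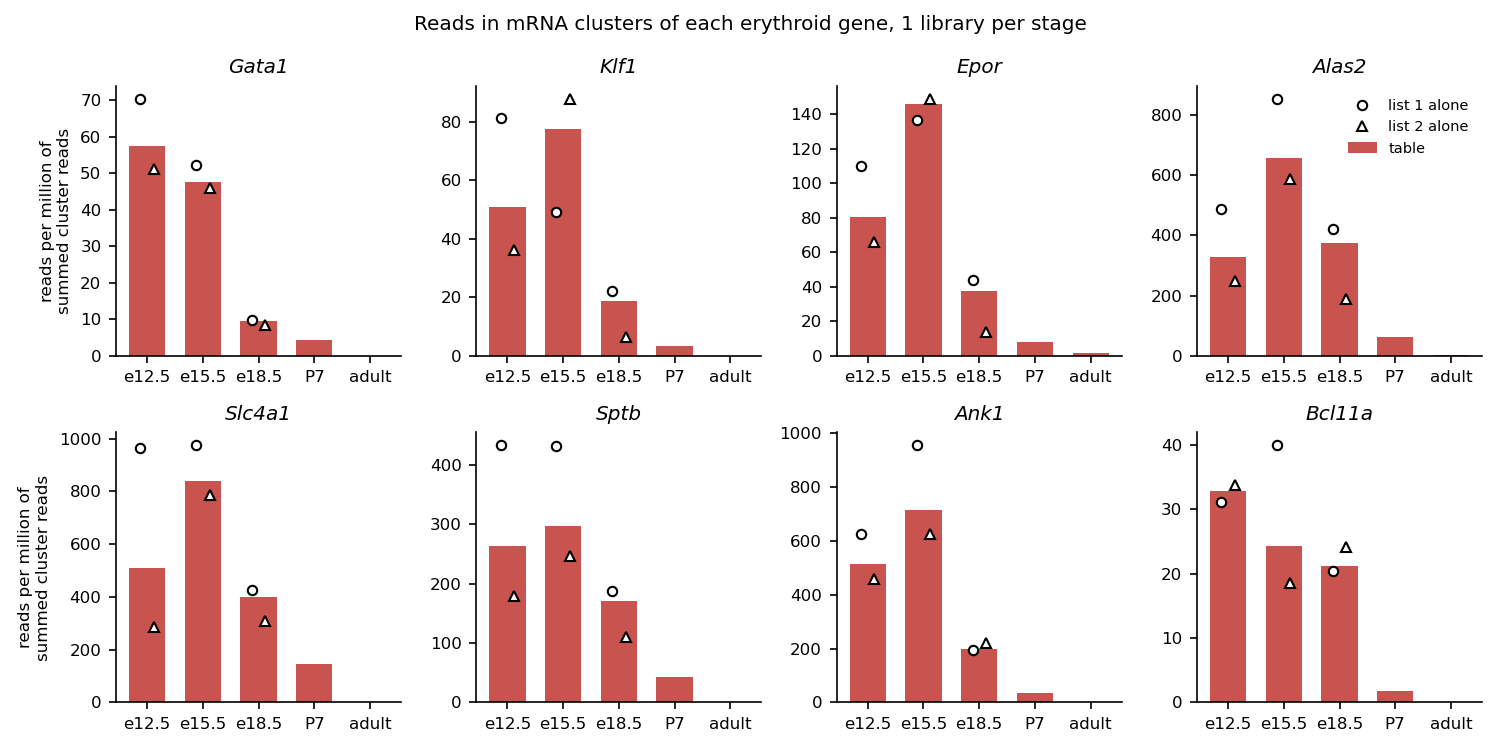
Level in rpm (vertical axis, linear, from 0, its own scale in each panel) in the mRNA clusters of each gene against the library (horizontal axis). Bars are the whole table, circles and triangles the 2 lists of each embryonic table alone. Levels at P7 and in adults lie below all embryonic values of the same gene, and Slc4a1, Ank1 and Alas2 reach 838, 714 and 657 rpm at e15.5.

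Among the regulators, Gata1, the zinc finger transcription factor that directs erythroid and megakaryocyte genes (chrX:7959260-7978071, minus strand), measured 57.5 rpm at e12.5, 47.7 rpm at e15.5, 9.61 rpm at e18.5, 4.24 rpm at P7 and 0 in adults. Both e18.5 lists (9.89 and 8.52 rpm) were below both e15.5 lists (52.4 and 46 rpm). The mRNA clusters numbered 22, 8, 5, 3 and 0, and 17 of the 22 at e12.5 lay in the CDS. Its richest cluster, chrX:7960622-7960664 in exon 5, had 620, 254, 13, 18 and 0 reads in the order of the stages.

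Klf1, the erythroid Krüppel-like factor that switches on adult β-globin and membrane genes (chr8:84901928-84905291, plus strand), measured 51 rpm at e12.5, 77.4 rpm at e15.5, 18.8 rpm at e18.5, 3.45 rpm at P7 and 0 in adults. Whether it was higher at e15.5 than at e12.5 depended on the list, since the 2 lists gave 81.3 and 36.1 rpm at e12.5 and 49.2 and 87.8 rpm at e15.5. It had 14, 10, 6, 4 and 0 mRNA clusters. The richest one, chr8:84902054-84902092 in exon 1, had 223, 283, 105, 9 and 0 reads in the order of the stages.

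Bcl11a, a zinc finger repressor that silences fetal-type globin genes and also acts in lymphoid cells (chr11:24078056-24174123, plus strand), was the lowest of the 8 genes at e12.5, e15.5 and P7. It measured 32.8 rpm at e12.5, 24.3 rpm at e15.5, 21.1 rpm at e18.5, 1.76 rpm at P7 and 0 in adults. Per kilobase of transcript it was the lowest at e18.5 too (3.53 rpm per kb). Its e15.5 and e18.5 lists overlapped, since 1 e15.5 list lay above and 1 below both e18.5 lists (20.4 and 24.1 rpm). One cluster in exon 4, chr11:24164507-24164528, held 76.4% of its mRNA reads at e18.5, with 242, 55, 210, 10 and 0 reads in the 5 libraries. Of its 30 positions, 25 were listed in 1 library only.

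Epor, the receptor through which erythropoietin keeps erythroid progenitors alive (chr9:21958897-21963506, minus strand), measured 80.5 rpm at e12.5, 146 rpm at e15.5, 37.7 rpm at e18.5, 7.82 rpm at P7 and 1.81 rpm in adults. Both e15.5 lists (137 and 149 rpm) were above both e12.5 lists (110 and 66.1 rpm). Its 2 adult clusters, with 31 and 14 reads, lay in exon 8, and only the one with 14 reads was at a position also listed at e12.5. The richest cluster, chr9:21960535-21960596 in exon 6, had 1359, 970, 109, 37 and 0 reads.

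Alas2, the erythroid enzyme that begins haem synthesis (chrX:150547375-150570638, plus strand), measured 327 rpm at e12.5, 657 rpm at e15.5, 373 rpm at e18.5, 63.7 rpm at P7 and 3.21 rpm in adults. Whether it was higher at e18.5 than at e12.5 depended on the scale, since per 1000000 mRNA cluster reads it had 1405 at e12.5 and 1243 at e18.5. The lists at these stages also overlapped (486 and 249 rpm against 422 and 187 rpm). Per kilobase of transcript, a scale that allows for length only, Alas2 had the highest level of the 8 genes at e12.5 (161 rpm per kb), e15.5 (322) and e18.5 (183). At e12.5 it was followed by Slc4a1 (112), Ank1 (62.9), Epor (45.7), Klf1 (33.3), Gata1 (30.2), Sptb (25.3) and Bcl11a (5.48), where Klf1, Gata1 and Sptb lay close together. At P7 Alas2 had 31.3 rpm per kb and Slc4a1 32.2. Its 4 adult clusters had 80 reads in all, and 3 of them, in exons 6, 8 and 11, were at positions listed in all 5 libraries. The richest cluster, chrX:150570328-150570440 in exon 11, had 4684, 3048, 935, 350 and 25 reads.

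Of the membrane genes, Slc4a1, which encodes band 3 (chr11:102348824-102366203, minus strand), measured 510 rpm at e12.5, 838 rpm at e15.5, 401 rpm at e18.5, 147 rpm at P7 and 0 in adults. By level, with no allowance for transcript length, it ranked 13 among the 11824 genes with an mRNA cluster at e12.5, 11 among 9573 genes at e15.5, 31 among 9897 genes at e18.5 and 93 among 12066 genes at P7. It had the most stable set of clusters. They numbered 41, 52, 52 and 58 from e12.5 to P7, and 24 of its 40 positions were listed in each of the 4 libraries before the adult one. The reads were spread over the mRNA, and the richest position held between 13.6% and 21.1% of them. In adults a single intronic cluster with 11 reads was listed.

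Sptb, erythroid β-spectrin (chr12:76580488-76710547, minus strand), measured 263 rpm at e12.5, 297 rpm at e15.5, 171 rpm at e18.5, 42.5 rpm at P7 and 1.45 rpm in adults. The e12.5 and e15.5 lists overlapped (433 and 180 rpm against 432 and 247 rpm), and per 1000000 mRNA cluster reads Sptb had 1131 at e12.5 and 1000 at e15.5. Its clusters numbered 89, 45, 23, 25 and 1. The adult one, with 36 reads, was listed under both an intron and a 3′UTR, lay outside the exons of the transcript used here, and was listed in all 5 libraries with 168, 68, 7, 33 and 36 reads. The richest cluster, chr12:76632403-76632424 in exon 3, had 945, 553, 882, 206 and 0 reads, which in rpm was highest at e18.5 (67.8).

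Ank1, the ankyrin that fastens band 3 to spectrin (chr8:22974844-23150497, plus strand), measured 513 rpm at e12.5, 714 rpm at e15.5, 200 rpm at e18.5, 36.6 rpm at P7 and 0 in adults. Its rank among all genes, also with no allowance for length, was 12, 13, 74 and 753. More than any other of the 8 genes at e12.5 and e15.5, its reads lay at 1 place, chr8:23098921-23099001 in exon 15. That cluster had 12290, 6962, 1394, 317 and 0 reads, and its position held 53.4%, 59%, 53.6% and 52.5% of the Ank1 mRNA reads in the 4 libraries. The miR-16-5p and miR-451a sites shown for Ank1 both lie in it.

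The order of neighbouring stages was then read from the lists. Both e18.5 lists were below both e15.5 lists for 7 of the 8 genes, all but Bcl11a, and for 14.5% of 10182 genes with at least 20 mRNA cluster reads in either library. The P7 level was below both e18.5 lists for all 8 genes, and for 22.8% of 10822 genes. The adult level was below the P7 level for all 8, as it was for 72.5% of 11041 genes, so that this order is common to most genes. Between e12.5 and e15.5 Epor, Alas2 and Ank1 had both later lists above both earlier ones, against 8.98% of 11348 genes. For Ank1 the nearest lists met at 626 rpm, and for the other 5 genes the lists overlapped. Scaled to the mRNA cluster reads of each list, only Epor and Alas2 were left (6.77% of genes), and Gata1 had both e15.5 lists below both e12.5 lists (23.4% of genes). The later counts stayed at 7, 8 and 8 on this scale, against 13.6%, 19.9% and 58.9% of genes. The rise to e15.5 in the whole tables is thus within the difference between lists of a table for Klf1, Slc4a1 and Sptb.

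The e12.5 and adult libraries were compared for all genes with at least 20 mRNA cluster reads in one of them, and a gene was called lower at a difference of at least 4-fold. A gene without a listed cluster was set to 5 reads, the lowest number in the tables, and its fold is called a bound. Reads of several unlisted clusters could add up to more than 5, so that the bound is not strict. The e12.5 table names its read number for the miRNA target, whereas the adult table names it for the peak. Whether both hold the same measure is not known, and they were used as if they did. All 8 genes were called lower in adults, against 37.4% of 12021 genes, and 16.8% of the genes were called higher. The fold was 44.5 for Epor, 102 for Alas2 and 182 for Sptb. It was at least 163 for Bcl11a, 254 for Klf1, 286 for Gata1, 2538 for Slc4a1 and 2552 for Ank1. Ank1 and Slc4a1 stood at ranks 3 and 4 of the 12021 genes by size of this difference, both as bounds. These bounds move with what is counted. For Ank1 the log2 difference was 11.32 over mRNA clusters, 2.74 over all regions and 8.83 over all regions without miRNA genes, and for Slc4a1 it was 11.31 and over all regions 10.20. With one e12.5 list alone the bound of Slc4a1 became 12.23 or 10.48. The first list alone moved the bound of Klf1 from 7.99 to 8.66 and the difference of Sptb from 7.51 to 8.22. At 16-fold, a threshold tried after the values were seen, all 8 genes were still called, against 13.7% of the genes. Of the genes listed at e12.5, 25% had no mRNA cluster in adults, and 5 of the 8 genes were among them.

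The median log2 difference was 7.75 over the 8 genes, 5 of them at their bound, and 1.28 over all genes. Above that median of all genes, the difference ran from 4.19 for Epor to 10.03 for Ank1. Scaled to mRNA cluster reads alone, the median of all genes was 0.49, 26.1% of genes were called lower and the folds were smaller, from 25.7 for Epor to at least 1476 for Ank1, with all 8 genes still called. Counting clusters in place of reads left 7 genes called, against 5.13% of 10926 genes, and turned the median of all genes to -0.36. Alas2, with 21 clusters at e12.5 and 4 in adults, differed by only 1.03 on the log2 scale.

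**Figure D2:**
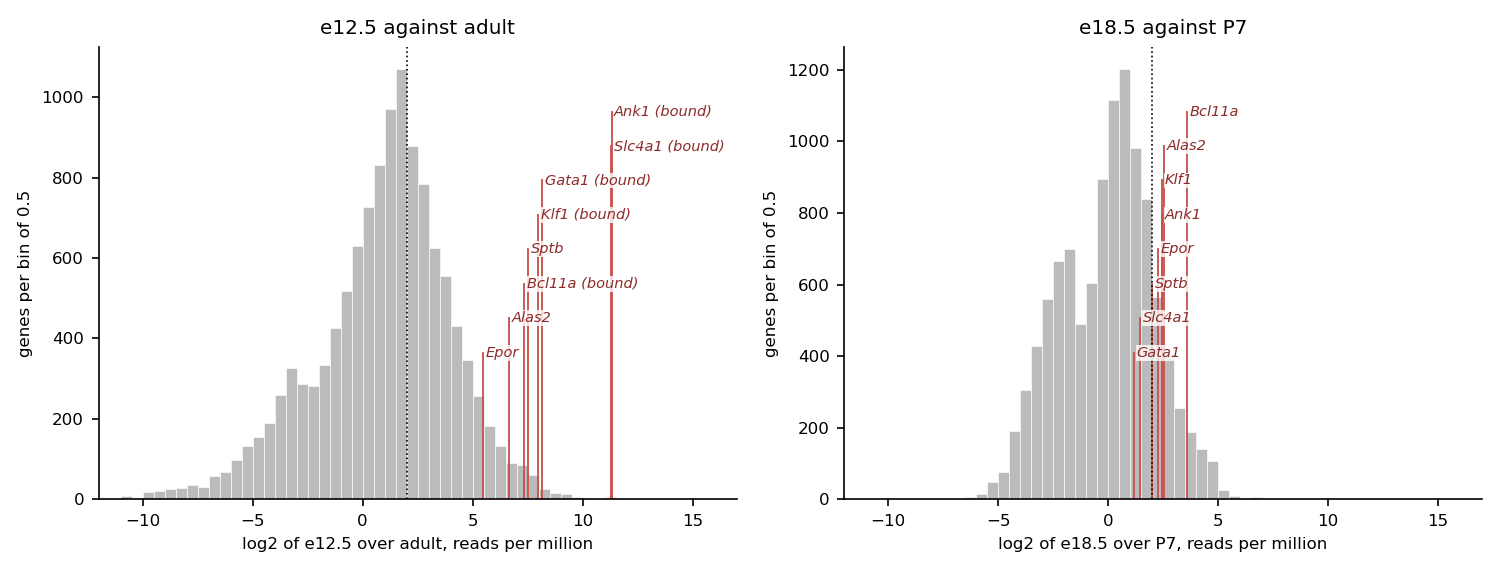
Number of genes (vertical axis, bins of 0.5) by the log2 ratio of their levels (horizontal axis), for e12.5 over adult at the left and e18.5 over P7 at the right. Grey bars are all genes compared, red lines the 8 erythroid genes, with "bound" where no mRNA cluster was listed in adults, and the dotted line marks 4-fold. At the left all 8 lines lie beyond 4-fold, and at the right 6 do.

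Across birth the difference was smaller. At P7, 6 of the 8 genes were at least 4-fold lower than at e18.5, against 15.7% of 10822 genes, and the median log2 difference was 2.36 over the 8 genes and 0.20 over all. Bcl11a was 12-fold lower, Alas2 5.86-fold, Ank1 5.46-fold, Klf1 5.45-fold, Epor 4.82-fold and Sptb 4.03-fold. Slc4a1, at 2.73-fold, and Gata1, at 2.26-fold, were not called. This count depended on the scale and on the list. Counting clusters in place of reads, none of the 8 genes was called, against 2.09% of all genes. Scaled to mRNA cluster reads, only Bcl11a was called (8.20-fold), with Alas2 just short of 4-fold, against 9.97% of all genes. With the second e18.5 list alone 2 genes were called, against 3.37% of all genes. The log2 difference then became 0.87 for Klf1, 0.81 for Epor, 1.55 for Alas2 and 1.39 for Sptb, in place of 2.45, 2.27, 2.55 and 2.01. For Bcl11a and Ank1 it became 3.78 and 2.60, in place of 3.59 and 2.45.

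Most Ago clusters of these mRNAs lay in the CDS. In the order of the stages, the 8 genes had 646, 256, 150, 156 and 12 clusters of any region, of which 325, 215, 138, 136 and 7 were mRNA clusters. CDS clusters numbered 251, 166, 105, 104 and 6, and 3′UTR clusters 112, 66, 37, 36 and 1, where a cluster listed under several regions counts in each. The CDS share of the mRNA clusters was 77.2% at e12.5 (Wilson 95% interval 72.4 to 81.5), 77.2% at e15.5 (interval 71.2 to 82.3), 76.1% at e18.5 (interval 68.3 to 82.4) and 76.5% at P7 (interval 68.7 to 82.8). Over all genes it was 61.3%, 62.8%, 63.4% and 65.5%, below each of these intervals. The adult share of the 8 genes, 6 of 7 clusters, had an interval of 48.7 to 97.4 and could not be set apart from the 72.9% of all genes. Clusters of a gene are not independent of each other, and Sptb, Ank1 and Slc4a1 gave most of them.

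The genes differed among themselves in this. Of 93 Ank1 mRNA clusters at e12.5, 67 were listed under the 3′UTR and 68 under the CDS, so that many were listed under both. Slc4a1 had 8 3′UTR and 32 CDS clusters, and Alas2 had 1 and 20. Slc4a1 was the exception by reads, for its richest position at e15.5, with 148 rpm, was in the 3′UTR in exon 20 (chr11:102349776-102350266), a stretch made up of several clusters. Intron clusters numbered 393 at e12.5 (160 under Ank1, 117 under Sptb and 83 under Bcl11a) and 78, 31, 37 and 6 at the later stages. They were 60.8%, 30.5%, 20.7%, 23.7% and 50% of the clusters listed under the 8 genes, beside 38.5%, 26.1%, 26.9%, 26.7% and 27% of the clusters listed under any gene.

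**Figure D3:**
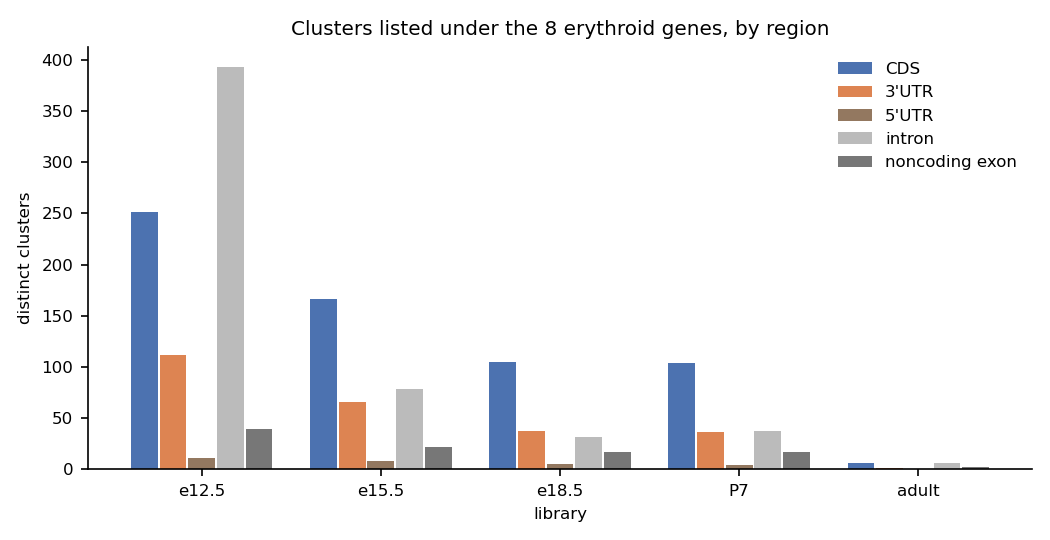
Number of distinct clusters listed under the 8 erythroid genes (vertical axis, from 0) by annotated region in each library (horizontal axis). CDS clusters outnumber 3′UTR clusters in all 5 libraries, 251 against 112 at e12.5, and intron clusters number 393 at e12.5, where the whole table is also the longest.

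Positions were then compared between libraries. Joined over libraries, the mRNA clusters made 368 positions, of which 187 were listed in 1 library, 85 in 2, 39 in 3, 53 in 4 and 4 in all 5. Of the positions listed at e15.5, 146 of 184 (79.3%) were also listed at e12.5, as were 93 of 109 (85.3%) at e18.5, 84 of 95 (88.4%) at P7 and 6 of 7 (85.7%) in adults. For the positions of all genes, joined the same way, the shares were 47.6%, 41.5%, 28.7% and 26.1%. The 8 genes ranked between 12 and 1155 of 11824 genes by level at e12.5, and the part of this in the shares was not tested. The e12.5 table has the most clusters of the 5, so that a position had more chances to be listed in it than in any other. The 4 positions in all libraries were 3 in the CDS of Alas2 and the Sptb one outside the exons.

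Their mRNA clusters held seed matches of 647, 419, 395, 426 and 16 miRNAs in the order of the stages. Among the 100 miRNAs with the most reads in a library, 84, 72, 64, 54 and 3 had a site. Sites of 6 matched bases were between 55.3% and 58.5% of the sites before adulthood, and between 51.2% and 52.7% over all mRNA sites. The median conservation score, which runs from 0 to 1, was 0.86, 0.90, 0.86 and 0.86 from e12.5 to P7, beside 0.89, 0.94, 0.88 and 0.86 over all mRNA sites.

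Seed families were counted as the share of mRNA clusters with any site of the family. More families were counted than are given here, and the intervals are not corrected for their number. The miR-15/16 family, which restrains the cell cycle, had a site in 25 of 325 clusters at e12.5 (7.69%, Wilson 95% interval 5.26 to 11.1) and in 14 of 215 clusters at e15.5 (6.51%, interval 3.92 to 10.6). The e18.5 library had 12 of 138 clusters (8.7%, interval 5.04 to 14.6) and the P7 library 13 of 136 clusters (9.56%, interval 5.67 to 15.7). Over all genes the shares were 4.06%, 4.4%, 4.85% and 4.48%, outside the interval in all but the e15.5 library. With matches of at least 7 bases only, the 8 genes had 2.77%, 3.72%, 4.35% and 4.41%, and all genes 2.26%, 2.64%, 2.79% and 2.51%. With 9, 8, 6 and 6 clusters, the Wilson 95% intervals (1.46 to 5.18, 1.9 to 7.17, 2.01 to 9.16 and 2.04 to 9.29) include the share of all genes in each library. The same positions recur between libraries, so that the 4 libraries are not separate results. Clusters with a match of any length were in Klf1, Epor, Alas2, Slc4a1, Sptb, Ank1 and Bcl11a at e12.5, and in Alas2, Slc4a1, Sptb, Ank1 and Bcl11a at the next 3 stages. Gata1 had none.

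The erythroid miRNAs miR-144-3p and miR-451a were among the abundant miRNAs of the fetal liver. At e12.5 miR-144-3p made up 21.7% of the miRNA reads, against 1.54% in adults, and it had a site in 4, 4, 3, 2 and 0 clusters of Sptb, Ank1 and Bcl11a, all matching 6 bases only. From e12.5 to P7 its sites were in 1.23%, 1.86%, 2.17% and 1.47% of the mRNA clusters of the 8 genes, beside 1.59%, 2.47%, 1.58% and 1.22% over all genes. miR-451a made up 6.98% of miRNA reads at e12.5 and 0.722% in adults. It had a site in 3, 2, 2, 2 and 0 clusters, in Epor and Ank1 from e12.5 to P7 (6 matched bases) and in Sptb at e12.5 (7 matched bases). These were 0.923%, 0.93%, 1.45% and 1.47% of the clusters of the 8 genes and 0.781%, 1.12%, 0.692% and 0.333% of those of all genes. For both miRNAs the Wilson 95% intervals of the 8 genes include the share of all genes from e12.5 to P7, except for miR-451a at P7 (0.404 to 5.2), where it rests on 2 clusters. miR-142a-3p, 32.2% of miRNA reads at e12.5 and 4.34% in adults, had a site in 4 clusters at e12.5 (Gata1, Klf1, Epor and Sptb), 4 at e15.5, none at e18.5, 1 at P7 and none in adults. These were 1.23%, 1.86%, 0% and 0.735% of the clusters from e12.5 to P7, beside 1.18%, 1.37%, 1.36% and 0.874% over all genes, and 0 of 138 clusters at e18.5 allow up to 2.17%.

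The tables listed no let-7-5p site in these mRNAs. The let-7-5p family made up 2.45% of miRNA reads at e12.5 and 22.4% in adults, and it had no site in any mRNA cluster of the 8 genes. With 0 of 325 clusters at e12.5, a share of up to 0.923% is allowed, which includes the 0.861% of all genes. At P7, 0 of 136 clusters allow up to 2.21%, beside 1.66% of all genes, so that a lack of let-7 sites was not detectable at this depth. The hepatocyte miRNA miR-122-5p had sites in 5 clusters at e12.5 (Slc4a1, Sptb and Bcl11a), 1 at P7 (Slc4a1) and none in the other 3 libraries. This was 1.54% of the clusters at e12.5, beside 1.15% over all genes, and 0.735% at P7, beside 2.52%. In the e15.5, e18.5 and adult libraries 1.52%, 2.31% and 3.32% of the clusters of all genes held one, where 0 of 215, 138 and 7 clusters of the 8 genes allow up to 1.4%, 2.17% and 42.9%. At e15.5 and e18.5 these bounds lie below the share of all genes. The Wilson 95% intervals reach to 1.76%, 2.71% and 35.4% and include the 3 shares of all genes. Whether these sites were fewer at e15.5 and e18.5 thus depends on the bound used, and in adults a lack of them was not detectable. At least 7 bases of miR-136-5p, which is encoded in an imprinted miRNA cluster, matched in Ank1 at 3 positions, in exons 2, 5 and 11, that were each listed in 3 or 4 libraries. With a match of any length, miR-136-5p had a site in 3.08%, 3.26%, 4.35% and 3.68% of the clusters of the 8 genes from e12.5 to P7, beside 1.74%, 1.56%, 1.55% and 1.2% over all genes. The Wilson 95% intervals were 1.68 to 5.57, 1.59 to 6.57, 2.01 to 9.16 and 1.58 to 8.32, and the first includes the share of all genes. They rest on 10, 7, 6 and 5 clusters, all in Alas2, Sptb and Ank1, and positions recur between libraries.

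Other sites of abundant miRNAs recurred outside the richest clusters. A site of miR-27a-3p and miR-27b-3p with 8 matched bases in exon 5 of Alas2 was listed in 4 libraries (chrX:150557256-150557276, plus strand). Epor had an 8-base site shared by miR-125b-5p and miR-351-5p in exon 8, also in 4 libraries. Bcl11a had a miR-30c-5p site in its 3′UTR in 4 libraries, and a miR-486a-5p site of 6 bases close to it in 2. The recurring sites of the haem enzyme and the receptor are shown with the paired bases in capitals.
Alas2, miR-27a-3p and miR-27b-3p: ccgtgtgttcaagACTGTGAA
Epor, miR-125b-5p: cagttcggggggctCTCAGGGA
miR-27a-3p: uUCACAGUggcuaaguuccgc
miR-125b-5p: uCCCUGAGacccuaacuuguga

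An intron of Ank1 holds the miRNA gene Mir486, and clusters over it were the largest under the name of any of the 8 genes. They were at 3944 rpm at e12.5, 3365 rpm at e15.5, 2897 rpm at e18.5, 1773 rpm at P7 and 690 rpm in adults (176978, 55584, 37691, 29248 and 17166 reads). They were counted in no mRNA level, since they are intronic, but are in the Ank1 difference over all regions, and over all regions they made up 63.6%, 53.5%, 69.7%, 84.5% and 98.7% of the reads listed under the 8 genes. Relative to the Ank1 mRNA clusters they stood 7.69-fold higher at e12.5, 4.71-fold at e15.5, 14.5-fold at e18.5 and 48.4-fold at P7. Reads at a miRNA gene can be those of the miRNA itself, so that this ratio does not compare bound target fragments. miR-486a-5p itself went from 1.36% of miRNA reads at e12.5 to 0.147% in adults.

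**Figure D4:**
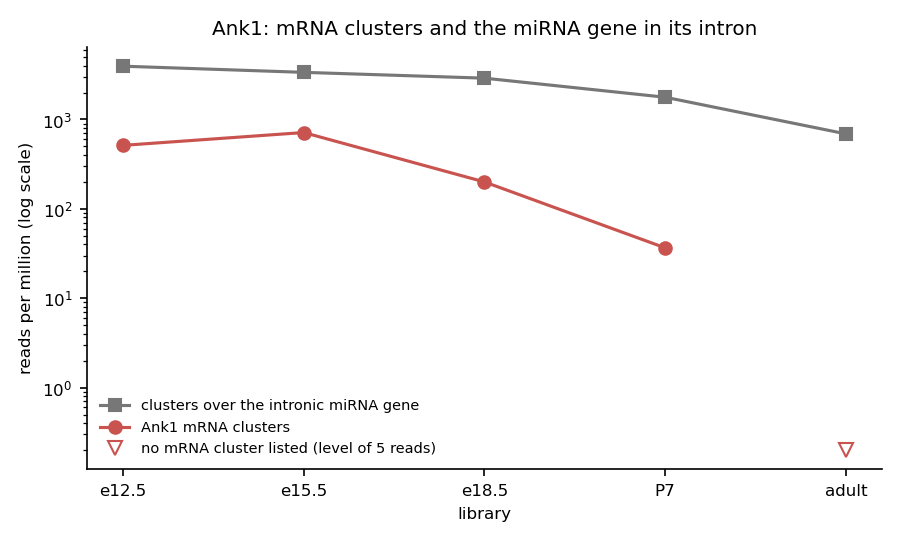
Level in rpm (vertical axis, log scale) in each library (horizontal axis) for clusters over the miRNA gene in an intron of Ank1 (squares) and for the Ank1 mRNA clusters (circles). The open triangle is the level of 5 reads, drawn where no mRNA cluster was listed. In adults the intronic clusters remain at 690 rpm.

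The genes around these 8 in the same pathways were also lower in adults, in varying shares. The lists hold alternative symbols, and counts are of the genes compared between e12.5 and adult, where 37.4% of all genes were called lower. Of 20 other erythroid transcription factors and cofactors, 18 were lower and none higher (median log2 difference 4.63). E2f2, a cell cycle factor of maturing erythroblasts, was at 169, 160, 91.6, 25.8 and 0 rpm, and Foxo3, a regulator of the response to oxidative stress, at 202, 329, 149, 86 and 61.5 rpm, only 3.28-fold lower in adults. Of 13 genes of erythropoietin receptor and Kit signalling, 7 were lower (median 2.46). Pim1, a kinase induced by the receptor, was at 248, 326, 178, 30.2 and 1.57 rpm, while Sh2b3, an inhibitor of the pathway, was highest at e18.5 (7.8, 5.33, 57.6, 23.4 and 6.19 rpm).

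Of 15 other haem synthesis genes, 11 were lower (median 3.6), among them Slc25a37, the mitochondrial iron importer, at 629, 1059, 435, 92.7 and 3.5 rpm. Cpox, an enzyme also used by hepatocytes for their haem, was 6.23-fold lower. Of 26 other red cell membrane and skeleton genes, 22 were lower and 1 higher (median 4.49). Mpp1, a scaffold protein of the red cell membrane, was at 169, 398, 103, 33.3 and 6.55 rpm, 25.8-fold lower in adults. Actb, in every cell, was at 176, 271, 376, 223 and 99 rpm and not called. Of 18 late erythroid enzymes and clearance genes, 16 were lower and 2 higher (median 4.79), with Cat, a peroxisomal enzyme abundant in hepatocytes, higher in adults (89.5 rpm at e12.5 and 688 rpm in adults).

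Markers of the other liver cells moved over the same libraries. The 15 hepatocyte markers summed to 1758, 5318, 12504, 11542 and 12936 rpm, 12 were higher in adults, against 16.8% of all genes, and 1, the fetal gene Afp, lower and unlisted in adults. Of 14 macrophage and Kupffer cell markers, 11 were higher in adults (16.8% of all genes) and none lower, with sums of 39.4, 144, 340, 245 and 238 rpm and 6 of them at 0 at e12.5, and Clec4f, which marks Kupffer cells, was at 0 at e12.5 and e15.5 and at 65.3 rpm in adults. The 7 globin genes listed were all lower in adults, with sums of 65031, 86639, 95094, 34212 and 1629 rpm, and 3 of them were unlisted there. Hba-a1 and Hba-a2 share their clusters, and both are in the sum. Without these 2 genes the globin sum was highest at e15.5 (5443, 12413, 5198, 1728 and 131 rpm), as was the sum of the 8 genes. The part of these cell types in the levels of the 8 genes was not tested.

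**Figure D5:**
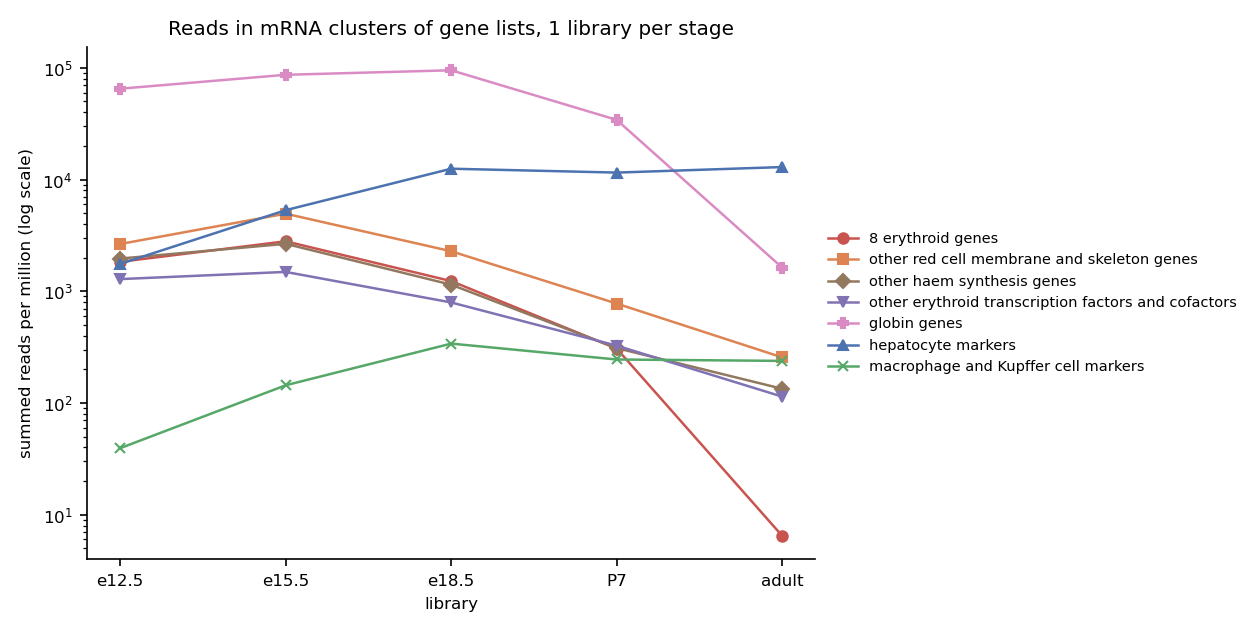
Summed rpm in mRNA clusters (vertical axis, log scale) of the 8 erythroid genes and of 6 other gene lists in each library (horizontal axis). The 8 genes end at 6.47 rpm in adults, below the other erythroid lists, while hepatocyte markers go from 1758 to 12936 rpm. The lists differ in size and some hold genes of other cells, such as Actb, so that the heights of the sums are not comparable.

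Genes with the most similar levels were found by the distance over the 5 libraries of log2(rpm + 1). This distance counts the height of the levels as well as their course. Add2, an adducin of the membrane skeleton, was among the nearest 3 to Klf1 (distance 0.59), and Cd24a, a surface protein of erythroblasts, among those of Ank1 (1.02). Pim1 was the second nearest to Sptb (0.51) after the linker histone Hist1h1c (0.34). The nearest to Epor was Prdx2, a peroxidase abundant in red cells (0.69), and the nearest to Alas2 was Tmcc2 (0.94). Genes of dividing cells were also near, with Mki67 nearest to Slc4a1 (0.90), Ccne1 among the nearest to Gata1 (0.68), and Top2a among those of Alas2, Slc4a1 and Ank1. This is a description over 5 libraries, one per stage.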

How the data were processed

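Ago HITS-CLIP libraries of mouse liver at 5 stages, 1 for each, were analysed from the authors' tables of miRNA-target interactions. The methods name 2 biological replicates for Ago2, whereas the labels hold only 1 sample for a stage. The authors trimmed reads with the FASTX-Toolkit, mapped them with Bowtie (the submitters' processing notes also name mm9 beside mm10), took miRNAs from miRBase v19, and annotated clusters with UCSC refGene and Ensembl; tool versions are not given in the sources used here. The deposited read column is a signal, the highest read number in a cluster, unscaled, with a lowest value of 5; the e12.5 table names it for the miRNA target and the other tables for the peak, taken here as 1 measure, and whether they are the same is not known. The deposited conservation value is a fraction between 0 and 1. The deposited free energy is a score and was not used.

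Clusters of the same strand that overlapped between the 2 lists of an embryonic table were joined for counts, and reads were added. Levels were summed highest reads of clusters under 3′UTR, CDS or 5′UTR scaled to 1000000 of the table's summed cluster reads. A gene was compared with at least 20 reads in one library and called at 4-fold. Exons are those of 1 GENCODE transcript per gene, and site sequences were read from GRCm38. Of 37 named miRNAs, 32 had a mature sequence in RefSeq. Named sites were up to 3 in the richest cluster of each gene by miRNA reads, those with at least 7 matched bases of the 50 most abundant miRNAs in at least 3 libraries, and those of miR-144-3p, miR-451a, miR-486a/b-5p, miR-142-3p, let-7 and miR-122-5p. Of each other list at most 4 genes with the highest levels were named, and some genes that this rule or the search for similar genes gave are not reported here. The 3′UTR stretch of Slc4a1 and the Sptb cluster outside the exons were singled out after their values were seen. The 8 genes, the lists and the alternatives were chosen with earlier results of these data known. Cluster joining and gene comparison were tested on simulated data. Python 3.11.15, numpy 2.4.6, pandas 2.3.3, matplotlib 3.10.9 and samtools 1.23.1 were used. Alternatives were other scalings, each list alone, all regions, other read minimums, other folds, and entries naming the gene alone.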

Additional observations from a re-analysis of the deposited data

Results flagged for a closer look

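Clusters over the miRNA gene Mir486 in an intron of Ank1 were outside the mRNA levels compared here, and in the adult library, where no Ank1 mRNA cluster was listed, they stood at 690 rpm. This is far above the 5 reads that the tables list at least, and reads at a miRNA gene can be those of the miRNA itself. The adult level was the lowest of the 5 libraries, of which e12.5 was the highest with 3944 rpm.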

How the results depend on the processing

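All 8 genes were at least 4-fold lower in adults than at e12.5 under every alternative run, except that counting clusters in place of reads left 7, without Alas2. The count of 6 genes lower at P7 than at e18.5 was less stable: it was 0 when clusters were counted in place of reads (2.09% of all genes), 1 when scaled to mRNA cluster reads (9.97%), and 2 with the second e18.5 list alone (3.37%), beside 15.7% as reported. Scaled to library read totals, an alternative added after the data were seen, it was 2 (10.8%). It was 5 over all regions (17.9%), 8 at 2-fold (32.5%) and 6 under the other 5 alternatives. The median log2 difference of all genes turned from 0.20 to -0.35 with mRNA scaling, -0.26 with library totals, -0.30 with clusters and -0.35 with the second list, while all 8 genes stayed lower at P7. For e12.5 against adult the median of all genes, 1.28, became 0.98 with library totals and -0.36 with clusters in place of reads. The number of clusters of the 8 genes depended on the lists: the first list alone gave 281 clusters at e12.5, 71 clusters at e15.5 and 99 clusters at e18.5, and the second list alone 99 clusters at e18.5. Counting mRNA clusters only gave 325 at e12.5 and 7 in adults. Of the 100 most abundant miRNAs, those with a site of at least 7 matched bases numbered 29 at P7 and 1 in adults, in place of 54 and 3. None of the 8 genes changed direction between e12.5 and adult or between e18.5 and P7. Scaled to mRNA cluster reads, which was added after the data were seen for the other pairs of stages, the log2 ratio of e12.5 over e18.5 for Alas2 turned from -0.19 to 0.18, and that of e12.5 over e15.5 for Sptb from -0.17 to 0.18; no other pair of stages turned for any of the 8 genes. No paired analysis was possible because each stage has 1 library, all with the same replicate number. The stages have 1 labelled library each, so each list alone was tried in place of leaving a library out. The adult values of the 8 genes rest on 161 reads in 7 mRNA clusters, in a table with 3351505 mRNA cluster reads, beside 3376639 at P7.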

Other observations

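Other blood and vessel cells left their own trace. Of 10 granulocyte and monocyte markers compared between e12.5 and adult, 9 were lower in adults, where 37.4% of all genes were called lower and 16.8% higher, and their sum was highest at e18.5 (137, 424, 1478, 365 and 2.37 rpm). S100a9, a calcium-binding protein of neutrophils, was at 82.7, 227, 728, 129 and 0 rpm. Lymphoid markers also stood highest at e18.5, with sums of 1.36, 18.7, 76, 10.1 and 1.81 rpm. Rag1, a recombinase of developing lymphocytes, was at 0, 14.6, 16, 1.39 and 0 rpm. The course of these lists, with a peak at e18.5, differed from that of the 8 erythroid genes, whose sum was highest at e15.5.

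Of 12 megakaryocyte markers, 9 were lower and 2 higher in adults, with sums of 89.6, 137, 101, 96.4 and 49.7 rpm. Most of the adult sum came from Nfe2l1, a gene expressed in many cell types, which was at 34.5, 32.9, 46.7, 37.8 and 34.1 rpm. Pf4, platelet factor, was at 4.97, 35.4, 2.15, 5.58 and 0 rpm. Of 10 endothelial markers, 8 were higher in adults (16.8% of all genes) and none lower, with sums of 26.1, 68.2, 93, 277 and 254 rpm. Kdr, the receptor for vascular endothelial growth factor, was at 6.55, 16.8, 32.7, 84.4 and 85 rpm.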
